A study of Saccharomyces cerevisiae with 4 samples.

Results

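A set of windows along the budding yeast genome had a high ratio of histone H3 phosphorylated at threonine 45 (H3T45p) over total H3 in untreated cells, and no such excess after hydroxyurea. Chromatin immunoprecipitation and sequencing had been done in the strain BY4741 with an antibody against H3T45p and with one against the C-terminal part of H3, which takes modified and unmodified H3 alike. Both antibodies are polyclonal. Cells in the hydroxyurea group received 200 mM of the drug for 2 h during mid-log growth in rich medium, and the other cells were left untreated. There was 1 library for each antibody and condition, 4 in all. The genome was cut into 81046 windows of 150 bp, of which 80474 lie on the 16 nuclear chromosomes. Signals are reads per window divided by one factor per library, as deposited by the authors. Members were selected on their own signals in all 4 libraries: they are the nuclear windows with an H3 signal of 70 or more in both conditions, a ratio of H3T45p over H3 at or below 1.1 in hydroxyurea, and one at or above 1.4 in untreated cells. The H3 minimum left 70598 eligible windows, and 2322 of them were members.

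The nucleosome wraps DNA around a core of histones, and threonine 45 of H3 sits close to where the DNA enters and leaves that core. The series concerns its phosphorylation by Cdc7, the kinase that, with its partner Dbf4, fires replication origins in S phase. Hydroxyurea blocks ribonucleotide reductase, so deoxynucleotides run short, forks stall, and cells collect in early S phase. In budding yeast the chromosome ends replicate late as a rule, and the silencing proteins Sir2, Sir3 and Sir4 bind near many of them and at the silent mating cassettes HML and HMR on chromosome 3. Windows poor in H3 are typical of gene promoters, where nucleosomes are sparse. The sources used here do not give the genome build, so windows were not assigned to genes, and no sequence was read from them. Positions count from 1 and are those of the files.

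Reads in windows numbered 23588153 to 28690293 per library. No input was analysed, and no value has a replicate check. In the titles the hydroxyurea libraries carry the number 1 and the untreated ones the number 2, and any batch those numbers may stand for cannot be told apart from the drug. Because of the one factor per library, only differences relative to the rest of the genome are seen. Because the rule uses all 4 signals, the signals of the members are given as a description, with no test. Intervals are exact binomial (Clopper-Pearson) at 95%. Those of ratios cover the counting error of reads only, and reads are not independent molecules. Those of shares count windows as if independent, which neighbouring windows are not, so they may be too narrow.

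Members were windows with little H3. Their median H3T45p signal was 137 in hydroxyurea, against 187 in untreated cells, while the H3 medians were 156 in hydroxyurea and 123 in untreated cells. In the eligible windows that were not members the H3T45p medians were 325 in hydroxyurea and 321 in untreated cells, with H3 medians of 317 and 322 in the same order. The members thus had less of all 4 signals than other windows, by these medians. The untreated H3 signal was the lowest of the 4 in 1457 members (62.7%), which held in 22.2% of eligible windows. The rule favours this order by construction, so nothing is read from that count. The ratio of H3T45p over H3 in members ranged in hydroxyurea from 0.36 to 1.0999 with a median of 0.89, and in untreated cells from 1.4001 to 2.35 with a median of 1.49. In 1831 members (78.9%) the hydroxyurea ratio was below 1, so that H3T45p was under H3, as it was in 49.6% of all eligible windows. The rule caps this ratio at 1.1 in members and not in eligible windows, so nothing is read from that difference.

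**Figure D1:**
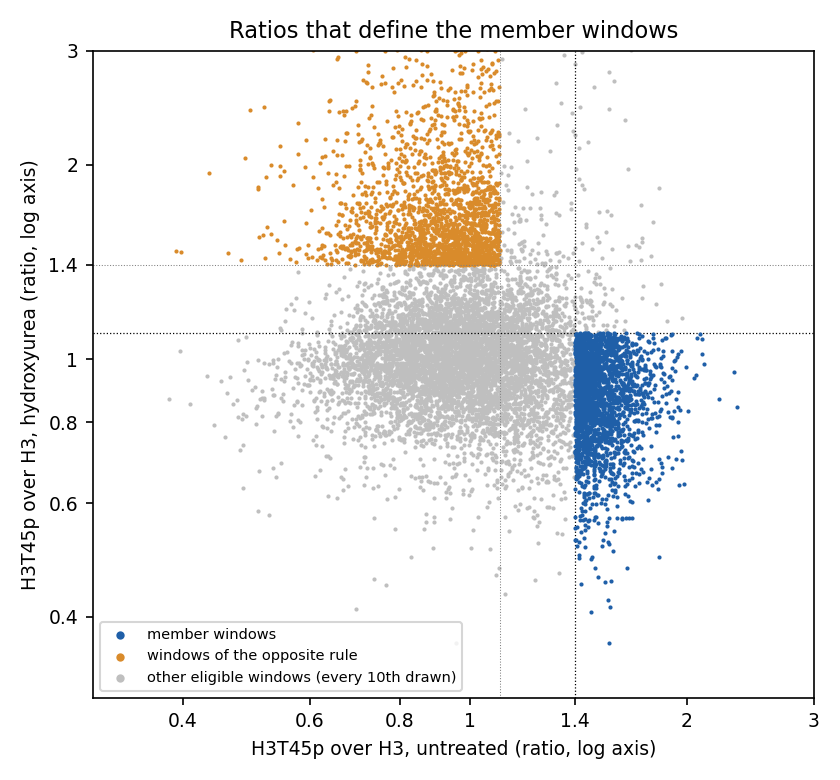
Ratio of H3T45p over H3 in each window, hydroxyurea on the vertical and untreated on the horizontal axis, both on log axes. Member windows fill the lower right corner set by the thresholds of 1.1 and 1.4 (black dotted lines), windows of the opposite rule (hydroxyurea at or above 1.4, untreated at or below 1.1) fill the upper left one, and every 10th of the other eligible windows is drawn, leaving out any with a ratio above 3 or below 0.3.

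Both signals took part in the difference between the conditions. The log2 signal of H3T45p, hydroxyurea over untreated, had a median of -0.48 in members (quartiles -0.70 and -0.25), and that of H3 had a median of 0.33 (quartiles 0.11 and 0.53). Over all eligible windows these medians were 0.02 for H3T45p and -0.02 for H3. H3T45p was lower in hydroxyurea in 2165 members (93.2%), against 47.7% of eligible windows, and H3 was higher in 2015 (86.8%), against 47.9%. Both held in 1858 members (80.0%), against 17.2% of eligible windows. Differences of 0.5 or more on the log2 scale were found downward for H3T45p in 1116 members (48.1%), against 8.81% of eligible windows, and upward for H3 in 645 (27.8%), against 5.84%. The rule favours lower H3T45p and higher H3 in hydroxyurea by construction, so nothing is read from these counts. The untreated H3T45p signal was the highest of the 4 in 1893 members (81.5%), which held in 25.1% of eligible windows. The rule favours this order too, and nothing is read from it.

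The loss in hydroxyurea was no more common among windows with an untreated excess than a ratio at or below 1.1 was among windows at large. An untreated ratio of 1.4 or more was found in 3365 eligible windows (4.77%). Of these, 2322 had a hydroxyurea ratio at or below 1.1 (69.0%, 67.4 to 70.6%), and 1043 kept a ratio above it. The same ceiling was met by 72.2% of all eligible windows. The members were 3.29% of the eligible windows. The opposite rule, a hydroxyurea ratio of 1.4 or more with an untreated ratio of 1.1 or less, was met by 2124 windows (3.01%) on the authors' scale.

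These counts moved with the scale. With recovered reads scaled to the total of nuclear reads of each library in place of the authors' factors, 5902 windows met the rule and 1310 its opposite. With both ratios divided by the median of their class among 10 classes of untreated H3, 198 windows met it, of which 171 were among the 2322, and 2818 met the opposite. Which of the rules picked more windows thus turned on the scale. The share of windows with an untreated excess that met the hydroxyurea ceiling was 75.3% with total nuclear reads, where 78.0% of eligible windows met it, and 41.0% with division by H3 class, where 72.5% did.

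The members lay at the lower end of the H3 range. Of the 2322, 2025 (87.2%, 85.8 to 88.5%) were among the 20% of eligible windows with the least untreated H3, with signals up to 179. The rule favours low untreated H3, so part of this share is set by construction. The hydroxyurea H3 signal, which the rule pushes up, still put 1525 members (65.7%) among its own lowest 20%. Of the windows of the opposite rule, 46.0% were in the lowest 20% of hydroxyurea H3, which that rule favours low. In the lowest 20% of untreated H3 were 19.2% of them. Eligible windows were also split into 10 equal classes of untreated H3. In the class with the least (70.9 to 134), 1395 of 7172 windows were members (19.5%). All windows of that class, members or not, had a median ratio of 0.90 in hydroxyurea, against 1.25 in untreated cells. In the class with the most H3 those medians were 1.00 in hydroxyurea and 0.71 in untreated cells, and 0 of its 7043 windows were members. Sorted by the hydroxyurea H3 signal instead, the lowest class had a median ratio of 1.03 in hydroxyurea, against 1.16 in untreated cells, and the highest class 0.99 and 0.74. The ratio thus varied more with H3 level in untreated cells whichever H3 library sorted the windows, and the untreated H3T45p library, with no replicate, enters both comparisons.

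Most members stood alone, and away from the chromosome ends they often lay in a dip of H3. Members joined where they touched or stood 1 window apart gave 1894 regions, of which 1566 held 1 member, 264 held 2 and 64 held 3 or more. The median gap from one region to the next was 3.45 kb (quartiles 1.2 and 8.25 kb). Beyond 20 kb from an end, 41.4% of members had less hydroxyurea H3 than both neighbouring windows, as did 20.1% of all eligible windows. For untreated H3, which the rule pushes down, the share was 50.6% of those members. The H3 signal of these members was 0.60 of the mean of windows 300 to 600 bp away in hydroxyurea and 0.48 in untreated cells (medians). For H3T45p it was 0.53 in hydroxyurea, against 0.71 in untreated cells. The dip was thus deeper for H3T45p than for H3 in hydroxyurea and shallower in untreated cells, an order that the rule sets.

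The departure faded within 1 or 2 windows. Around the 1481 single members beyond 20 kb, the median ratio at the member was 0.89 in hydroxyurea, against 1.48 in untreated cells. In the next window on the right it was 0.96 in hydroxyurea, against 1.15 in untreated cells, and 10 windows away it was 1.00 and 1.03. Neighbouring windows share sonicated fragments, so the nearest ones are not separate measurements. Around the 85 single members within 20 kb of an end, the untreated ratio was 1.503 at the member, 1.27 in the next window on the right and still 1.16 at 10 windows, where the hydroxyurea ratio was 0.97.

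**Figure D2:**
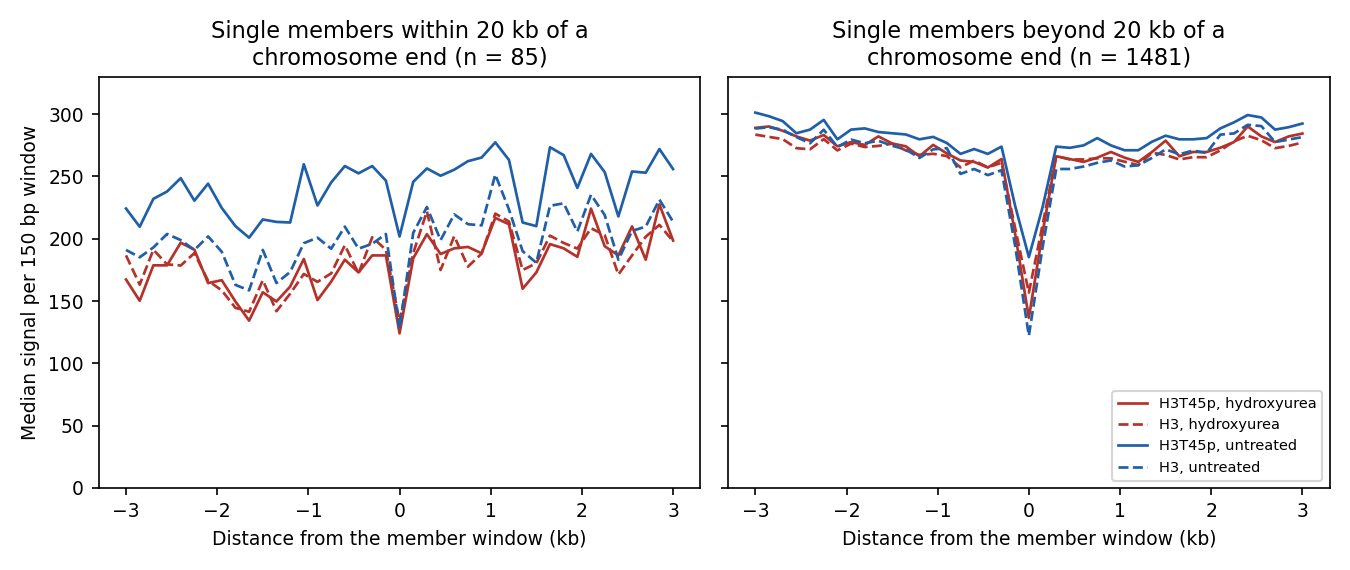
Median signal per window of the 4 libraries against distance from a member that stands alone, for 85 members within 20 kb of a chromosome end (left) and 1481 members beyond it (right). All libraries dip at members beyond 20 kb, with H3T45p at 137 in hydroxyurea and 185 in untreated cells; within 20 kb the untreated H3T45p line runs above the other 3 over the whole stretch drawn.

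Chromosome ends held more members than their share of windows. Within 20 kb of an end lay 237 members (10.2%, 9.005 to 11.5%), against 3.51% of eligible windows and 2.97% of the windows of the opposite rule (2.29 to 3.78%). By distance, 8.94% of eligible windows in the last 3 kb were members (5.69 to 13.2%), 11.01% from 3 to 10 kb (8.84 to 13.5%), 8.95% from 10 to 20 kb (7.55 to 10.5%) and 4.82% from 20 to 40 kb (4.16 to 5.55%). From 40 to 100 kb the share was 2.91% (2.61 to 3.23%), and beyond 100 kb it was 2.97% (2.83 to 3.12%). Members were more frequent near the ends at a given H3 level too. In the lowest of the 10 classes of untreated H3, 28.4% of the 447 windows within 20 kb were members, against 18.9% of the 6725 beyond, and in the third class 11.7% of 291 against 2.55% of 6774. With ratios divided by the median of their H3 class, 29.8% of the 198 windows that met the rule lay within 20 kb.

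Near the ends the untreated excess was more frequent, and the share of it that was lost was similar. An untreated ratio of 1.4 or more was found in 13.9% of eligible windows within 20 kb of an end and in 4.43% of those beyond. Of such windows, 68.9% within 20 kb (63.7 to 73.8%) and 69.0% beyond (67.3 to 70.7%) were at or below 1.1 in hydroxyurea. The 1043 windows that kept their excess lay within 20 kb in 10.3% of cases (8.48 to 12.3%), close to the 10.2% of members.

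**Figure D3:**
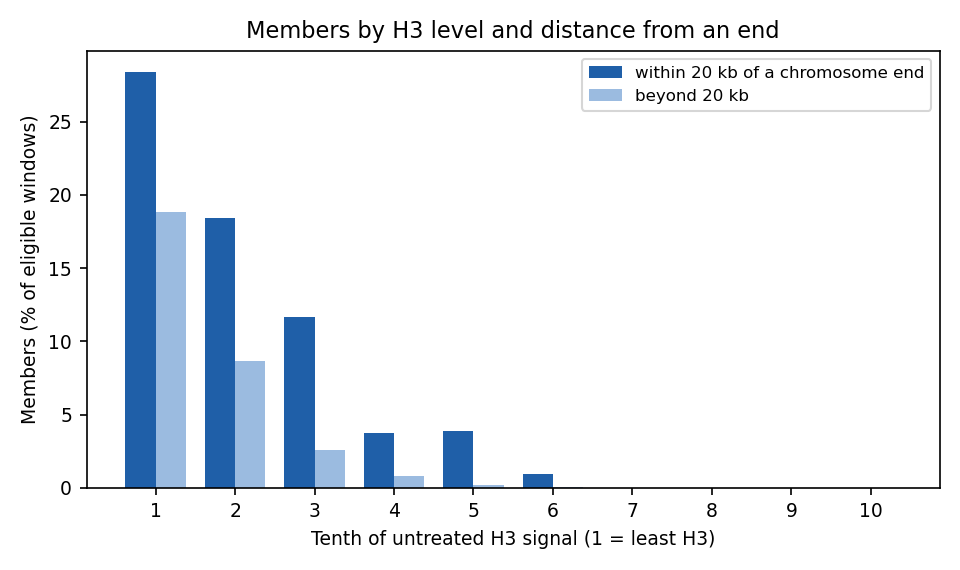
Members as a percent of eligible windows (bars start at 0) in 10 equal classes of the untreated H3 signal, within 20 kb of a chromosome end (dark) and beyond (light). In each of the 6 lowest classes the share was higher within 20 kb, from 28.4% against 18.9% in the first to 0.96% against 0.059% in the sixth.

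Near the ends H3T45p made up more of the difference, though the ranges overlapped. Within 20 kb the median log2 change, hydroxyurea over untreated, was -0.65 for H3T45p (quartiles -0.83 and -0.49) and 0.15 for H3 (0.01 and 0.35). Beyond 20 kb it was -0.46 for H3T45p (-0.67 and -0.24) and 0.35 for H3 (0.14 and 0.54). Windows that were neither members nor of the opposite rule, 1.5 to 10 kb away from each member, had a median change of -0.31 for H3T45p and -0.18 for H3 around members within 20 kb. Around members beyond 20 kb these were -0.06 and -0.08. The same surroundings of all eligible windows within 20 kb gave -0.27 and -0.17, so the ends as a whole had less of both signals in hydroxyurea. In bulk chromatin fewer copies of a region per cell and less histone per copy cannot be told apart. Beyond 20 kb, eligible windows were put in 5 equal classes by the H3 change of these surroundings. In the class with the most negative change 3.795% were members, and in the class with the most positive one 2.57%. Windows of the opposite rule made up 2.32% and 3.19% of the same classes.

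The 32 ends differed widely. In the last 20 kb, 27 ends held a member and 21 had a share above the 3.29% of the whole genome, with a median over ends of 7.70%. The highest shares were 28.9% at the right end of chromosome 3 (35 members), 23.1% at the right end of chromosome 12 (9 members of 39 eligible windows), 22.1% at the left end of chromosome 1 (25 members) and 18.2% at the right end of chromosome 11 (20 members). The right end of chromosome 9 had 0 members among 129 eligible windows, which allows a share of up to 2.33%, a limit taken as 3 windows of the 129 and not as an exact binomial bound, and the left end of chromosome 5 had 0 among 97. At the right end of chromosome 9 both signals were higher in hydroxyurea, with median log2 changes of 0.41 for H3T45p and 0.23 for H3, while at the right end of chromosome 3 they were -0.51 and -0.07.

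**Figure D4:**
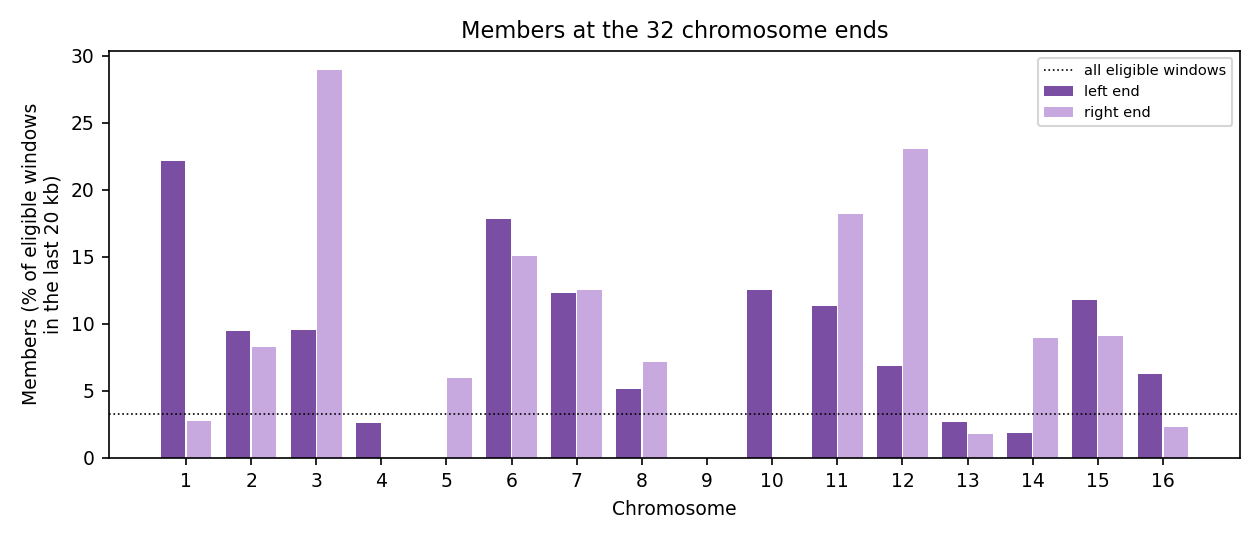
Members as a percent of the eligible windows in the last 20 kb at the left (dark) and right (light) end of each chromosome, with bars from 0 and a dotted line at the 3.29% of all eligible windows. The right end of chromosome 3 (28.9%) and the left end of chromosome 1 (22.1%) stand high, and 5 ends have no member.

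The right end of chromosome 3, the arm that carries HMR, had the highest share in the last 20 kb. Its last 40 kb were described with these data known, so a high share there is no separate result. This stretch held 59 members among 227 eligible windows (26.0%, 20.4 to 32.2%). The share was 5.97% in the last 40 kb of the other 31 ends (5.38 to 6.59%) and 2.96% beyond 40 kb from any end (2.83 to 3.09%). Of the 72 windows of the stretch with an untreated ratio of 1.4 or more, 81.9% were at or below 1.1 in hydroxyurea. The same held for 81.9% of all its eligible windows. The opposite rule was met by 1 window there. The 168 eligible windows of the stretch that were not members had a median ratio of 0.98 in hydroxyurea, against 1.19 in untreated cells (quartiles 1.02 and 1.33), where such windows beyond 40 kb from the ends had 1.01 and 0.97. The untreated ratio was above the hydroxyurea ratio in 77.4% of these 168 windows, against 41.5% beyond 40 kb. The elevation in untreated cells was therefore not limited to the members, but it was uneven. By intervals of 5 kb, the untreated medians of non-members were 1.07 and 1.06 from 275001 to 285000, and 1.17 to 1.35 from 285001 to 315000. The comparison was not matched for H3. Median untreated H3 was 219 in the stretch, against 316 beyond 40 kb. Over all eligible windows with untreated H3 of 180 to 222, the median untreated ratio was 1.12. Under the division by H3 class, 26 of the 198 windows that met the rule lay in this stretch.

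Along this arm the members set in over several steps. In intervals of 5 kb, from 265001 to 275000 on chromosome 3 there was 1 member in each, from 275001 to 290000 there were 5, 3 and 5, and from 290001 to 315000 there were 7, 9, 10, 10 and 10. Between 290001 and 295000 only 14 of 33 windows were eligible, and 7 of the 14 were members. The median signals over the 33 eligible windows from 300001 to 305000 were, in hydroxyurea, 223 (H3T45p) and 229 (H3), and in untreated cells 311 (H3T45p) and 231 (H3). There H3 differed little between the conditions and H3T45p was the signal that was lower in hydroxyurea. The left 40 kb of the same chromosome, the arm that carries HML, had 16 members among 216 eligible windows (7.41%, 4.29 to 11.8%). Its H3T45p and H3 were both higher in hydroxyurea, with median log2 changes of 0.33 and 0.32, where on the right they were -0.43 and -0.04. The cassettes share sequence with each other and with the mating type locus, and how reads that match several copies were treated was not tested. Windows with 0 signal in all 4 libraries numbered 11 of 33 from 10001 to 15000 and 2 of 33 from 290001 to 295000. Such windows also occurred elsewhere on the chromosome, as in 10 of 34 from 150001 to 155000.

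**Figure D5:**
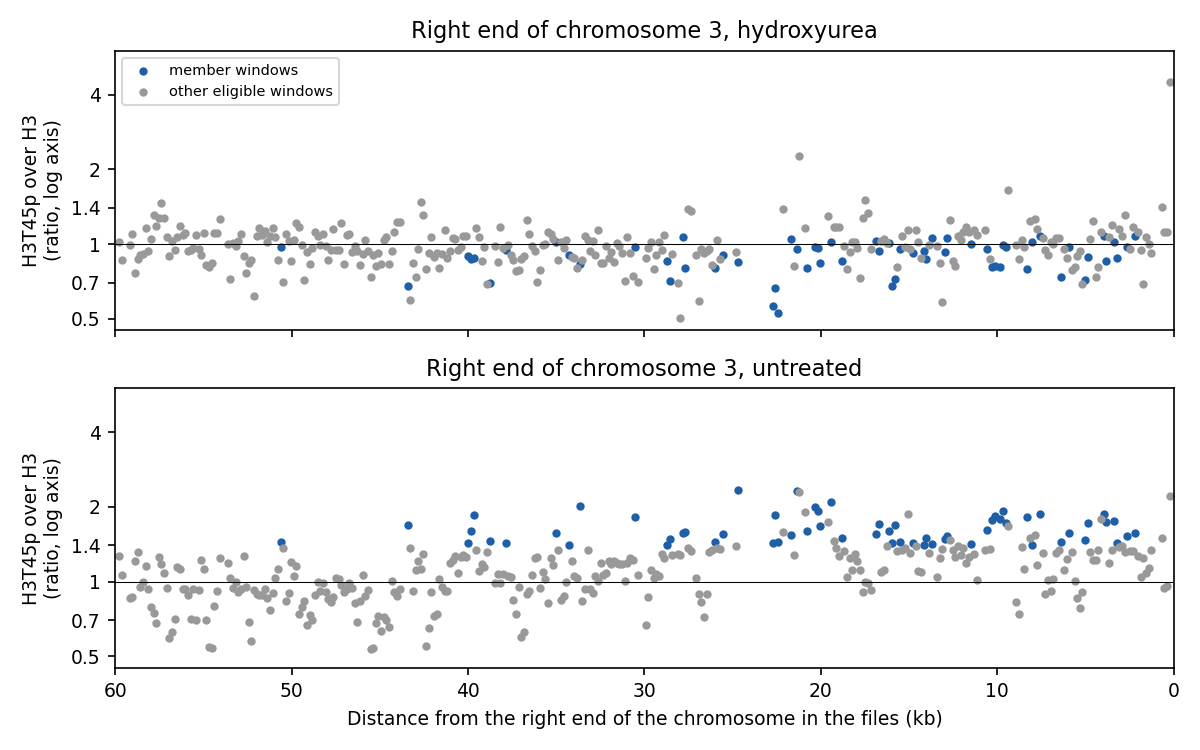
Ratio of H3T45p over H3 on a log axis in eligible windows against distance from the right end of chromosome 3, in hydroxyurea (top) and untreated cells (bottom), with members in blue. In the last 40 kb the windows that are not members have a median of 0.98 in hydroxyurea and 1.19 in untreated cells.

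The highest untreated ratio of any member lay in this stretch. At chromosome 3 from 291901 to 292050 H3T45p was 93.3 in hydroxyurea, against 187 in untreated cells, while H3 was 111 in hydroxyurea, against 79.8 in untreated cells. The ratio was 0.84 in hydroxyurea, against 2.35 in untreated cells (1.80 to 3.08). At chromosome 3 from 297151 to 297300, with more reads, H3T45p was 245 in hydroxyurea, against 382 in untreated cells, and H3 was 240 and 182. The ratio there was 1.02 in hydroxyurea, against 2.10 in untreated cells. Both windows were chosen after their values had been seen. The region of 6 members at chromosome 3 from 306001 to 307200 had mean H3T45p of 130 in hydroxyurea, against 218 in untreated cells, while mean H3 was 146 in hydroxyurea, against 124 in untreated cells. Its ratio was 0.89 in hydroxyurea (0.80 to 0.98) and 1.76 in untreated cells (1.61 to 1.93).

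Of the 10 regions with the most members, 8 lay within 20 kb of an end. The 2 largest held 7 members each. At chromosome 15 from 12451 to 13800, mean H3T45p was 196 in hydroxyurea, against 287 in untreated cells, and mean H3 was 217 and 191. The ratio was 0.90 in hydroxyurea (0.84 to 0.97) and 1.501 in untreated cells (1.401 to 1.61). The other region of 7, at chromosome 2 from 754201 to 755700, lay 57.5 kb from the end. Its mean H3T45p was 123 in hydroxyurea, against 188 in untreated cells, its mean H3 was 140 and 121, and its ratio was 0.88 in hydroxyurea, against 1.56 in untreated cells. In both regions H3T45p made up most of the difference.

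Chromosome 1 held a pair of large regions near its left end. At 3001 to 4200, 6 members had mean H3T45p of 133 in hydroxyurea, against 202 in untreated cells, and mean H3 of 140 and 125, with ratios of 0.95 in hydroxyurea and 1.61 in untreated cells. At 10051 to 11100, 5 members had mean H3T45p of 90.1 in hydroxyurea, against 178 in untreated cells, and mean H3 of 118 and 105. The ratio of the second was 0.76 in hydroxyurea (0.67 to 0.87) and 1.69 in untreated cells (1.52 to 1.89), the largest fall of the 10 regions, with a log2 change of -1.15. In this region H3 differed little, with a log2 change of 0.17, and H3T45p was lower by 0.98.

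The region near the left end of chromosome 3, of 6 members from 18751 to 19800, had the largest H3 difference of the 10 regions. Its mean H3T45p was 188 in hydroxyurea, against 204 in untreated cells, and its mean H3 was 207 and 141. The log2 change was -0.12 for H3T45p and 0.56 for H3, so on the authors' scale H3 made up most of the difference here. The 30 eligible windows from 15001 to 20000, members among them, had median changes of 0.24 for H3T45p and 0.36 for H3. Higher H3 in hydroxyurea was thus shared in part by the windows around the region. The ratio of the region was 0.91 in hydroxyurea, against 1.45 in untreated cells. On chromosome 6, a region of 5 members from 18601 to 19500 had the opposite make-up, with H3 of 156 in hydroxyurea, against 157 in untreated cells, and H3T45p of 157 in hydroxyurea, against 250 in untreated cells. The other region on chromosome 6, from 267301 to 268200, had ratios of 0.95 in hydroxyurea and 1.45 in untreated cells. The remaining 2 were at chromosome 11 from 652651 to 653550 (0.87 in hydroxyurea and 1.56 in untreated cells) and, 606 kb from an end, at chromosome 4 from 605701 to 606900 (0.85 and 1.49). Of the 10 regions, 9 had lower H3T45p and higher H3 in hydroxyurea, and the chromosome 6 region from 18601 had no H3 difference to speak of (log2 change -0.0032).

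The largest falls of single windows rested on few reads. The 10 largest ranged from -2.10 to -1.67 on the log2 scale. Of these 10 windows, 1 was less than 20 kb from an end, close to the 10.2% of all members. At chromosome 14 from 534001 to 534150, H3T45p had 48.9 in hydroxyurea and 120 in untreated cells, and H3 had 134 and 76.8. The ratio was 0.36 in hydroxyurea (0.25 to 0.52, from 43 and 148 reads) and 1.56 in untreated cells (1.17 to 2.10, from 123 and 78 reads). At chromosome 15 from 591451 to 591600 the H3T45p signal was 72.8 in hydroxyurea, against 190 in untreated cells, and the ratio 0.43 in hydroxyurea (0.32 to 0.57) and 1.56 in untreated cells (1.24 to 1.97). At chromosome 15 from 18451 to 18600, the window near an end, it was 0.49 in hydroxyurea, against 1.83 in untreated cells. The others were on chromosomes 2 (522151 and 334351), 8 (509101), 9 (43801), 11 (338251), 12 (1044901) and 15 (665251), with ratios of 0.41 to 0.48 in hydroxyurea and 1.43 to 1.65 in untreated cells.

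Many members stood close to the thresholds. Of the 2322, 1250 had an untreated ratio below 1.5, and 491 had a hydroxyurea ratio above 1.0. The member nearest to the lower limit was at chromosome 15 from 505951, with 1.4001 in untreated cells, and the 5 nearest windows outside had 1.3999, among them chromosome 14 from 13951. At the limit of hydroxyurea, the nearest member was at chromosome 13 from 748201 with 1.0999, and the 5 nearest windows outside reached 1.1004, at chromosome 16 from 381151. By H3, the 5 members nearest to the minimum had 70.7 to 70.9 and the 5 windows just outside 69.9. The median member had, in hydroxyurea, 120 reads of H3T45p and 172 of H3, and in untreated cells 192 reads of H3T45p and 125 of H3. The counting intervals of the 2 ratios did not overlap in 1609 members (69.3%), and the whole untreated interval was at or above 1.4 in 109 (4.69%). The rule sets the 2 ratios apart by construction, and the same shares were not computed over all eligible windows. Nothing is therefore read from the count of intervals that do not overlap, or from the 109.

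Among chromosomes the share of members ran from 2.07% on chromosome 5 to 5.56% on chromosome 3, followed by 5.10% on chromosome 6 and 4.11% on chromosome 1, the 3 shortest in the files. With the last 20 kb left out these 3 had 3.58% (chromosome 3), 3.53% (chromosome 6) and 2.33% (chromosome 1), within the range of the others, 2.03% on chromosome 5 to 3.88% on chromosome 14. Of 611 stretches of 20 kb, 45 held no member and 29 held 10 or more, 11 of which reached into the last 20 kb of a chromosome. The fullest inner ones held 14 members each. They began at 540001 on chromosome 2, at 1020001 on chromosome 7 and at 140001 on chromosome 14.

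The regions called by the authors did not touch the members. Of the 2322 members, 0 were touched by any of the 630 hydroxyurea peaks or the 87 untreated peaks. Of the 70598 eligible windows, only 486 were touched by a hydroxyurea peak and 23 by an untreated peak. The lowest hydroxyurea ratio of an eligible window was 2.02 under a hydroxyurea peak and 5.84 under an untreated peak. The ceiling of the rule thus leaves such windows out by construction for both lists. Of the members, 6.93% lay within 1 kb of a hydroxyurea peak, against 10.4% of eligible windows, and 1.34% within 1 kb of an untreated peak, against 1.16%. The ceiling also bars windows beside a peak where their hydroxyurea ratio is raised. Nothing is therefore read from the lower share of members near hydroxyurea peaks. Of the 2124 windows of the opposite rule, 261 were touched by a hydroxyurea peak. That rule asks for a raised hydroxyurea ratio, so this count is favoured by construction as well.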

How the data were processed

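Members and lists were chosen with earlier results of these data known. The deposited signal per window of 150 bp was made by the authors, and the submitters' processing notes name BWA 0.5.9-r16 and DESeq, with no role or order. Values were whole multiples of one step per library (100% within 0.001 of a read), so reads per window were recovered. The unit of the deposited signal is thus reads divided by one factor per library. The deposited peak lists of the authors give positions only, with no score. The authors' difference tracks were not used. Ratios were taken without a pseudocount, in eligible windows (H3 of 70 or more in both conditions). Distances run to the first or last window of a chromosome. With 1 library per group no test was run. The regions named follow a rule of size, and the windows named as chosen later do not. No genome of the files' build was used here, so gene classes, gene lists, base composition, repeated sequence and the strain's deletions were not analysed here. Scripts ran in Python 3.11.15 with numpy 2.4.6, pandas 2.3.3 and scipy 1.17.1, and the rule and intervals were tested on simulated data. Simulated members were placed only in windows with more untreated H3 than any real member had. The test therefore did not cover the low H3 range in which the members lie. The alternatives changed the H3 minimum, thresholds, scale, pseudocount, averaging, ends, chromosome 3 and counting error.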

Additional observations from a re-analysis of the deposited data

How the results depend on the processing

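Values are given in the order members, regions, median log2 change of H3T45p and of H3 (hydroxyurea over untreated), percent of members within 20 kb of an end, and percent in the lowest 20% of untreated H3, against 2322, 1894, -0.48, 0.33, 10.2% and 87.2%. An H3 minimum of 140 gave 797, 733, -0.39, 0.28, 12.2% and 91.1%. Thresholds of 1.6 and 1.0 gave 375, 346, -0.63, 0.41, 16.5% and 98.4%, and 1.3 and 1.2 gave 5324, 3730, -0.37, 0.27, 7.83% and 73.9%. Scaling to total nuclear reads gave 5902, 4009, -0.50, 0.32, 7.30% and 71.7%. Division by the median of each H3 class gave 198, 183, -0.61, 0.33, 29.8% and 63.1%. A mean over 3 windows gave 803, 490, -0.48, 0.23, 21.8% and 94.9%, with 409 of the 2322 retained. A pseudocount of 28 gave 1219, 1064, -0.51, 0.33, 12.3% and 87.6%. Other settings kept both counts within 1.5 times. There the changes and the share in the lowest 20% were -0.53, 0.35 and 83.7% at an H3 minimum of 35, and -0.46, 0.35 and 88.9% without the last 20 kb. The changes were -0.53 and 0.38 where counting intervals were apart. The lowest 20% held 85.0% with ratios centred on their median, and 8.69% lay near ends without chromosome 3, against 3.29% of eligible windows. Each setting selects again on the ratios, so nothing is read from the signs of both changes or from the 0 members touched by a peak. The opposite rule gave 2124 windows, against 1310 with total nuclear reads, 1999 with centred ratios and 2818 by H3 class, and the share of the untreated excess that was lost was 69.0%, against 75.3%, 69.2% and 41.0%; these scalings of the opposite rule and of that share were chosen after seeing the data. The share near ends was above that of eligible windows in all 11 settings that kept the ends. Joining only touching windows gave 2001 regions, and joining up to 5 windows apart gave 1568. The cause of these shifts was not tested. Base composition and repeated sequence were not run, for want of a genome of the files' build. No paired analysis was possible because the groups compared share no replicate number and each holds 1 library. With about 120 to 190 reads per signal in a median member, a single window's ratio is known only to about the width of its interval.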
